A study of Rattus norvegicus with 2 samples.

Results

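The ATP-binding cassette (ABC) transporters of H9c2 cells were compared between cells transfected with a plasmid for Cacnb4 and cells transfected with an empty vector. Members were the genes whose symbol begins with Abc, a subfamily letter from a to g and a digit. The expression table held 45 such symbols among 16783, and 25 of them reached 1 FPKM or more in at least 1 library, of 9539 genes that did so. FPKM counts sequenced fragments scaled to the length of the transcript and to how many reads each library had mapped, so levels can be set side by side between genes, and values were summed over the transcripts of a symbol. The table's header does not name this unit, which was read from the values and the layout.

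ABC proteins bind and hydrolyse ATP with a conserved cassette, and most of them use it to move lipids, bile salts, haem, drugs or peptides across a membrane. Subfamilies A and G are known for lipid and sterol export, B and C for drug and conjugate export and for mitochondrial transport, and D for import into peroxisomes. Members of subfamilies E and F have the cassette without a membrane part and act at the ribosome. In heart and skeletal muscle the family is best known for Abcc9, the sulphonylurea receptor that pairs with a potassium channel pore to make a channel closed by ATP.

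H9c2 is a myoblast line from embryonic rat heart, here of strain BD1X, and both groups are this same line. Cacnb4 codes for beta4, a cytosolic subunit that assists the pore of voltage-gated calcium channels. The labels do not say how long after transfection the cells were taken. There was 1 library per group, so no difference below has a replicate check, no test between the conditions can be made, and a p-value or q-value quoted from the authors compares the reads of these 2 libraries. The Cacnb4 plasmid library had 14939784 mappable reads and the empty vector library 13569897. Cacnb4 itself was at 6266 FPKM in the Cacnb4 plasmid library and 4.37 FPKM in the empty vector library. Of 12 skeletal muscle markers 9 reached 1 FPKM, among them Myod1 at 101 FPKM in the Cacnb4 plasmid library and 89.8 FPKM in the empty vector library. Of 12 cardiac markers 4 did, and the cardiac myosin gene Myh6 was at 0.0974 and 0.0407 FPKM in those libraries, under the minimum. Of the 4, the troponin gene Tnnt2 was at 309 FPKM in the Cacnb4 plasmid library and 214 FPKM in the empty vector library, and the other 3 lay lower in the Cacnb4 plasmid library, Actc1 at 192 and 225 FPKM, Gata4 at 3.05 and 4.05 FPKM and Tnni3 at 1.46 and 2.42 FPKM. The myocardium label is thus matched by only part of the cardiac markers. Of 8 hepatocyte markers 1 reached 1 FPKM, of 8 leukocyte markers 1 and 0 of 5 endothelial markers that the table held. Of 8 kidney and gut epithelial markers 2 did. Krt8 was at 48.0 FPKM in the Cacnb4 plasmid library and 50.1 FPKM in the empty vector library, and Krt18 at 0.377 and 1.19 FPKM.

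None of the 25 measured ABC genes differed by 2-fold between the libraries. The 2-fold rule was applied to the log2 ratio of FPKM + 1, which understates differences of low genes. On that scale 0 of 25 stood 2-fold or more above the empty vector library, against 1.94% of all measured genes, and 0 of 25 stood 2-fold or more below it, against 1.08%. Shares so small leave room for less than 1 gene among 25, so these counts are near the background and are not read as a result about the family. All 25 log2 ratios lay between -0.43 and 0.40, and all 25 were within 1.5-fold on it, as were 93.4% of all measured genes, of which 4.07% were higher and 2.52% lower by that size. The median log2 ratio was -0.06 over the ABC genes and -0.03 over all measured genes, with 9 ABC genes above 0 and 16 below. The total over the 45 symbols was 342 FPKM in the Cacnb4 plasmid library and 352 FPKM in the empty vector library. That was 0.971 times as much. All named genes together also lay lower in the Cacnb4 plasmid library, at 658582 FPKM against 691892 FPKM. The median ratio behind the rescaling described below was 0.976, so the family's total is not read as a drop of its own. Tap1, Tap2 and Cftr, ABC genes outside the symbol rule, are not in this total. They summed to 83.7 FPKM in the Cacnb4 plasmid library and 19.4 FPKM in the empty vector library. In bulk RNA, fewer cells of a type and less RNA per cell cannot be told apart.

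**Figure D1:**
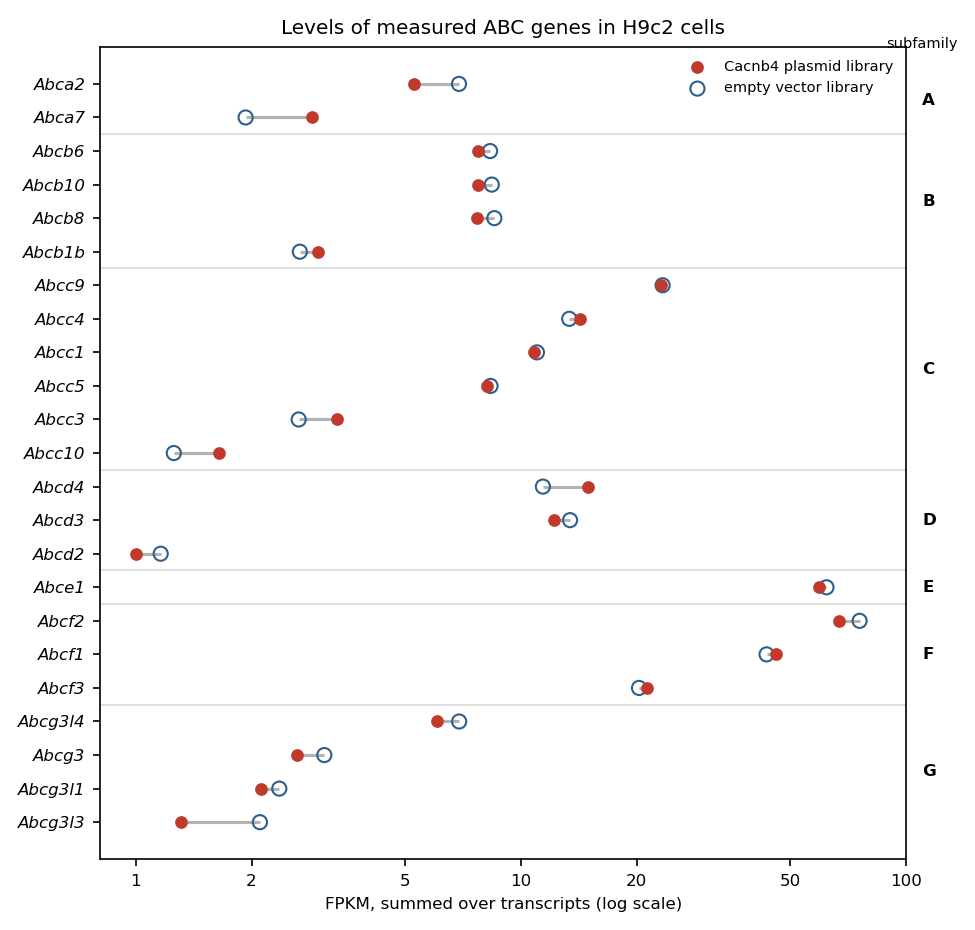
Level of 23 of the 25 measured ABC genes in FPKM (log axis), with the Cacnb4 plasmid library as filled points and the empty vector library as open circles, 1 library each and grouped by subfamily. The widest gap is that of Abcg3l3, at 1.31 and 2.10 FPKM, and levels reach from about 1 FPKM for Abcd2 to 66.9 and 75.7 FPKM for Abcf2.

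**Figure D2:**
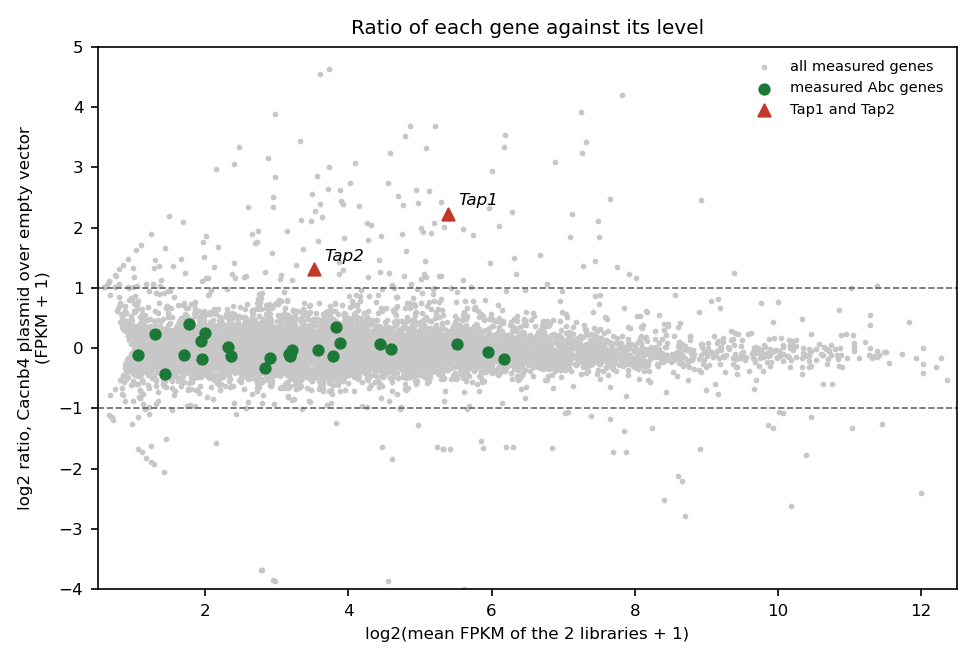
Log2 ratio of FPKM + 1, Cacnb4 plasmid library over empty vector library, against the log2 mean level of the 2 libraries for all measured genes, with ABC genes in green, Tap1 and Tap2 as red triangles and dashed lines at 2-fold. The ABC genes lie between -0.43 and 0.40, while Tap1 is at 2.23 and Tap2 at 1.31, and 68 genes lie outside the axes.

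Of the soluble, ribosome-linked members, 3 were the most abundant of the family, and the other, Abcf3, came after Abcc9 in both libraries. The highest of the Abc symbols was Abcf2, a member of the F subfamily. It was at 66.9 FPKM in the Cacnb4 plasmid library and 75.7 FPKM in the empty vector library. Tap1, an ABC gene outside the symbol rule, is not counted in this order. It was at 68.3 FPKM in the Cacnb4 plasmid library and 13.7 FPKM in the empty vector library. Abce1, which splits ribosomes after termination, was at 59.5 FPKM in the Cacnb4 plasmid library and 62.1 FPKM in the empty vector library. Abcf1, which binds initiation factor eIF2, was at 45.9 FPKM in the Cacnb4 plasmid library and 43.4 FPKM in the empty vector library, and Abcf3 at 21.2 and 20.3 FPKM. These 4 genes held 56.6% of the FPKM of all Abc symbols in the Cacnb4 plasmid library and 57.3% in the empty vector library. Abcf2, Abce1 and Abcf1 took the first 3 places among the Abc symbols in each library, in that order.

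Abcf1 lies inside a stretch of chromosome 20 that holds rat class I MHC genes. The table lists it on rn4 with a joint locus from 2815942 to 3413320, shared with 30 other named genes. Of 6 measured RT1 genes of that locus, 5 passed 2-fold upward in the Cacnb4 plasmid library, with a median log2 ratio of 1.48, where Abcf1 had a log2 ratio of 0.08 and 1.94% of all measured genes were that much higher. RT1-S3, a class I gene, was at 28.6 FPKM in the Cacnb4 plasmid library and 4.79 FPKM in the empty vector library. The 18 other measured genes of the locus had a median log2 ratio of 0.08, and 1 of these 18 was 2-fold higher, beside that same 1.94%. That gene was LOC360231, at 9.60 FPKM in the Cacnb4 plasmid library and 1.75 FPKM in the empty vector library. RT1 genes were told apart by symbol only, and whether LOC360231 is itself an MHC sequence was not tested. The sequences of RT1 genes are much alike, so their single values are uncertain, and this locus was picked out after its values were seen.

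Subfamily C, the multidrug resistance proteins and sulphonylurea receptors, was led by Abcc9. It was at 23.2 FPKM in the Cacnb4 plasmid library and 23.3 FPKM in the empty vector library, a ratio of 0.993, and had rank 4 of the family in both. Its partner pore, Kcnj8, was at 7.75 FPKM in the Cacnb4 plasmid library and 8.69 FPKM in the empty vector library. The other sulphonylurea receptor gene, Abcc8, was at 0.0714 and 0.0202 FPKM, and the other pore gene, Kcnj11, at 0.117 and 0.000632 FPKM, all under the minimum. The exporters of glutathione conjugates and organic anions had ratios from 0.976 to 1.26. Abcc4, which also exports cyclic nucleotides, was at 14.2 FPKM in the Cacnb4 plasmid library and 13.4 FPKM in the empty vector library. This level sums transcripts at separate loci, at 8.69 and 5.53 FPKM in the Cacnb4 plasmid library. In the empty vector library they were at 7.17 and 6.18 FPKM, so they went in opposite directions. Abcc1, the founding multidrug resistance protein, was at 10.8 FPKM in the Cacnb4 plasmid library and 11.0 FPKM in the empty vector library, and Abcc5 was at 8.14 and 8.34 FPKM. Abcc3, an exporter of glucuronides and bile salts, was at 3.34 FPKM in the Cacnb4 plasmid library and 2.65 FPKM in the empty vector library, 1.26 times as much.

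Abcc10, another multidrug resistance protein, was the only symbol of the 45 with a transcript that the authors marked as significant. Its sum was 1.65 FPKM in the Cacnb4 plasmid library and 1.26 FPKM in the empty vector library, 1.31 times as much and far from 2-fold. Its locus lies on chromosome 9 of rn4 from 10219821 to 10244071 and is shared in the table with Dlk2. Transcript TCONS_00030246 was at 1.20 FPKM in the Cacnb4 plasmid library and listed at 0 in the empty vector library. Transcript TCONS_00030245 was at 0.452 FPKM in the Cacnb4 plasmid library and 1.26 FPKM in the empty vector library. The first of these therefore held 72.6% of the symbol's FPKM in the Cacnb4 plasmid library and 0% in the empty vector library. In the authors' deposited table it had a p-value of 0.000171 with a q-value of 0.0224, and the other transcript a p-value of 1. Using only its transcript of highest mean level instead turned the direction of Abcc10, with a log2 ratio of -0.64 in place of 0.23. Only levels near the minimum of 1 FPKM stand behind these shares, and without counts per transcript no counting interval can be given for them.

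Other members listed with several transcripts kept closer shares. Abcc5 had a transcript at 5.17 FPKM in the Cacnb4 plasmid library and 4.49 FPKM in the empty vector library, 63.5% and 53.8% of its sum. Its other transcript was at 2.97 FPKM in the Cacnb4 plasmid library and 3.86 FPKM in the empty vector library. For Abcc4, the transcript from 103024888 to 103050618 on chromosome 15 held 61.1% of its sum in the Cacnb4 plasmid library. It held 53.7% in the empty vector library. The rest came from a transcript listed from 103383869 to 103611238, which does not overlap it. These shares are thus not shares of forms of 1 locus. For the haem-linked Abcb10 the main transcript held 74.7% and 76.6%. Of the 51 transcripts listed for ABC symbols, the authors' deposited table marked 1, against 0.696% of all transcripts and 0.515% of named ones, and 1 transcript does not set the family apart. Among the 28 unmarked transcripts at 1 FPKM or more, Abca7 had the lowest p-value of the authors' deposited table, 0.106, with a q-value of 0.833.

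**Figure D3:**
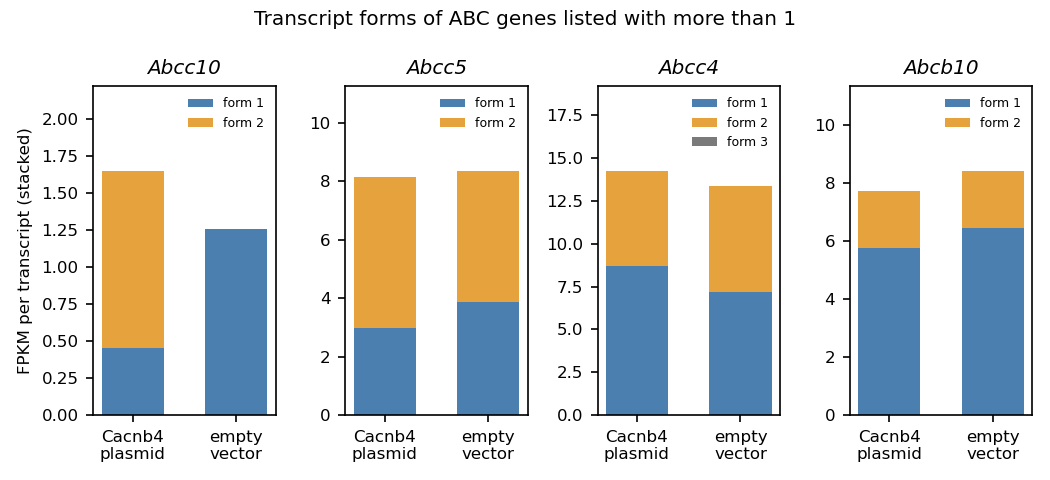
FPKM of each transcript of Abcc10, Abcc5, Abcc4 and Abcb10, stacked, with the Cacnb4 plasmid library on the left of each panel and the empty vector library on the right (1 library each, axes differ between panels). Abcc10 has 0.452 and 1.20 FPKM in the Cacnb4 plasmid library and 1 transcript at 1.26 FPKM in the empty vector library. Abcc5, Abcc4 and Abcb10 each show 2 transcripts in both libraries, and those of Abcc4 are listed at separate loci.

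By symbol, subfamily B was represented mainly by its mitochondrial members, which lay slightly lower in the Cacnb4 plasmid library. Tap1 and Tap2, of subfamily B by descent, lay higher there and are given further below. Abcb8, of the inner membrane, was at 7.68 FPKM in the Cacnb4 plasmid library and 8.54 FPKM in the empty vector library. Abcb10, which acts in haem synthesis, was at 7.73 and 8.40 FPKM, and Abcb6, a porphyrin transporter, at 7.74 and 8.32 FPKM. These 3 ratios lay between 0.900 and 0.930. Their log2 ratios of -0.14, -0.11 and -0.09 were smaller in size than the median absolute log2 ratio of all measured genes, 0.15. P-glycoprotein, the classical drug efflux pump, is encoded in rats by Abcb1a and Abcb1b. Abcb1b was at 2.98 FPKM in the Cacnb4 plasmid library and 2.67 FPKM in the empty vector library, and Abcb1a at 0.489 and 0.415 FPKM, under the minimum. These near copies share a locus of the table with Abcb4, so reads can be split among them.

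The 4 genes of subfamily D were all measured. Abcd4, which takes part in lysosomal export of cobalamin, was at 14.9 FPKM in the Cacnb4 plasmid library and 11.4 FPKM in the empty vector library. That was 1.31 times as much. Abcd3, the main peroxisomal membrane member, was at 12.2 FPKM in the Cacnb4 plasmid library and 13.4 FPKM in the empty vector library. Abcd2, another peroxisomal member, was at 1.01 FPKM in the Cacnb4 plasmid library and 1.16 FPKM in the empty vector library. Abcd4 and Abcd3 changed places in the family's order, with ranks 6 and 8 in the Cacnb4 plasmid library and ranks 8 and 6 in the empty vector library.

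Few lipid exporters of subfamilies A and G were measured. Abca2, a lipid transporter of endosomes and lysosomes, was at 5.29 FPKM in the Cacnb4 plasmid library and 6.91 FPKM in the empty vector library. Abca7, which moves phospholipids, was at 2.88 FPKM in the Cacnb4 plasmid library and 1.93 FPKM in the empty vector library, the highest log2 ratio of the family at 0.40. The measured genes of subfamily G all belonged to the rodent Abcg3 group, clustered on chromosome 14. Abcg3l4 was at 6.04 FPKM in the Cacnb4 plasmid library and 6.92 FPKM in the empty vector library, Abcg3 at 2.63 and 3.09 FPKM, and Abcg3l1 at 2.12 and 2.36 FPKM. Abcg3l3 was at 1.31 FPKM in the Cacnb4 plasmid library and 2.10 FPKM in the empty vector library, 1.60 times lower and the lowest log2 ratio of the family at -0.43. All 4 were lower in the Cacnb4 plasmid library, and the sum of subfamily G was 12.8 FPKM there and 15.6 FPKM in the empty vector library. These genes are near copies, so reads can be split among them and they are not independent. Abcg3l2, listed with the locus of Abcg3l4, was at 0.000205 FPKM in the Cacnb4 plasmid library and 0.658 FPKM in the empty vector library.

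The remaining members stayed under 1 FPKM in both libraries, 20 symbols with Abcb1a, Abcc8 and Abcg3l2 among them. Closest to the minimum were Abca5, at 0.866 FPKM in the Cacnb4 plasmid library and 0.966 FPKM in the empty vector library, and Abca1, at 0.914 and 0.621 FPKM. Abca1 exports cholesterol to apolipoprotein A-I. Just above the minimum were Abcd2 and Abcc10. The sterol exporters Abcg1, Abcg5 and Abcg8 and the drug exporter Abcg2 were each at most 0.0968 FPKM. Abcb11, the bile salt export pump, and Abcc2, the exporter of bilirubin glucuronides, were listed at 0 in both libraries. On rn4 they lie on the sequences named 3_random and 1_random. The others were Abca4, Abca13, Abca15, Abca17, Abcb4, Abcb9, Abcc6, Abcc12 and Abcg4. At such levels no fold is given.

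Tap1 and Tap2, the ABC proteins that carry peptides into the endoplasmic reticulum for class I MHC, belong to subfamily B by descent but not by symbol. Tap1 was at 68.3 FPKM in the Cacnb4 plasmid library and 13.7 FPKM in the empty vector library, 4.97 times as much. Tap2 was at 15.3 FPKM in the Cacnb4 plasmid library and 5.59 FPKM in the empty vector library, 2.74 times as much. Both lay above 2-fold, as did 1.94% of all measured genes and 0 of the 25 measured Abc genes. With a pseudocount of 5 FPKM, only Tap1 of the 2 did. The authors' deposited table marked both, with q-values of 1.77e-10 and 0.00491. Cftr, the chloride channel of subfamily C, was at 0.0348 and 0.0467 FPKM. Adding these 3 genes to the family made 2 of 27 measured genes higher, beside that same 1.94%. The family's median log2 ratio was then -0.03, against -0.06 without them. These 3 genes were chosen with earlier results of these data known.

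The promoters of Tap1, Tap2 and Abcc10 are shown because these are the 3 genes that carry the authors' ABC pathway entry. Each is the 250 bases before the RefSeq start of build GRCr8, 5′ to 3′ on the gene's strand, with matches to GAAANNGAAA or its reverse complement TTTCNNTTTC in capitals. This motif is the core of the interferon-stimulated response element. The windows are chr20:4668544-4668793 (minus strand) for Tap1, chr20:4652297-4652546 (minus strand) for Tap2 and chr9:22154581-22154830 (plus strand) for Abcc10.
Tap1: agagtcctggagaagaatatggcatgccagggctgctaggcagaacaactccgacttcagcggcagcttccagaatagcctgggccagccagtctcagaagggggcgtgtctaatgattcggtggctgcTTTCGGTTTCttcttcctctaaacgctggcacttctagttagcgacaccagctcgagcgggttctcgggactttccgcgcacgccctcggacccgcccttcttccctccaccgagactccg
Tap2: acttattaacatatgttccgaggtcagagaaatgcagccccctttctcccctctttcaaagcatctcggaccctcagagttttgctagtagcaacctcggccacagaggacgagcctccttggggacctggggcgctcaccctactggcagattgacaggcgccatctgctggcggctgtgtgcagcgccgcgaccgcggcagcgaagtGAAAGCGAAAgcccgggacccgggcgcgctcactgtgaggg
Abcc10: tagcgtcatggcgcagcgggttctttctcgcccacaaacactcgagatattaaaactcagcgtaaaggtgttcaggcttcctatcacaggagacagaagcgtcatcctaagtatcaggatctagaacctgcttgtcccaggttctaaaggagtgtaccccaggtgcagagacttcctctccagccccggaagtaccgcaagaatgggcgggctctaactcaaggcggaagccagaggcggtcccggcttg
Tap1 held 1 match that began 121 bases before the start, and Tap2 held 1 that began 41 bases before it. Both belong to the 108 measured genes 2-fold higher with a promoter, of which 37 held a match, 34.3%. Of the 25 measured Abc genes 20 matched a RefSeq promoter by symbol. The motif was in 0 of these 20 windows, against 3.61% of all 27457 genes with a promoter. A share so small leaves room for less than 1 window among 20, so this count does not set the members apart. A match is only a run of letters, and a window without one says nothing about other sequence.

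In the authors' deposited table of pathways for the higher genes, the KEGG term for ABC transporters had place 5 of those listed. The authors' deposited table gave it 3 genes, an 11.9-fold enrichment, a p-value equal to 0.0244 and a Benjamini-adjusted p-value of 0.207. The genes were Tap1, Tap2 and Abcc10. Thus 2 of the 3 were peptide transporters of antigen presentation, and the third was a symbol whose sum was under 2-fold and whose marked transcript was at 1.20 FPKM in the Cacnb4 plasmid library.

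Genes that work with the ABC members were taken as lists by role. On the FPKM + 1 scale, 0 measured genes of these lists other than Tap1 and Tap2 reached 2-fold. Over all measured genes 1.94% were higher and 1.08% lower by that size, shares so small that this count is near the background and is not read as a result about the lists. Of 19 measured iron-sulphur and haem genes, 14 lay below 0, and the median log2 ratio was -0.15, against -0.03 over all measured genes. Slc25a28, a mitochondrial iron importer, stood apart from them. It was at 28.3 FPKM in the Cacnb4 plasmid library and 13.8 FPKM in the empty vector library, 2.05 times as much. Its log2 ratio of 0.98 lay just under the threshold, and it lay past it with a pseudocount of 0.1 FPKM or after rescaling. The transferrin receptor gene Tfrc was at 8.49 FPKM in the Cacnb4 plasmid library and 11.8 FPKM in the empty vector library, and Gfer, of the intermembrane space, at 16.7 and 22.5 FPKM.

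Of 13 measured enzymes and sensors of drug conjugation, 10 lay below 0. The 3 above 0 were the regulators Ahr, Arnt and Nfe2l2, with log2 ratios of 0.05, 0.13 and 0.39. Keap1, a regulator too, lay below 0, at 9.46 FPKM in the Cacnb4 plasmid library and 10.6 FPKM in the empty vector library. The median log2 ratio of the list was -0.29, against -0.03 over all measured genes. The quinone reductase Nqo1 was at 417 FPKM in the Cacnb4 plasmid library and 551 FPKM in the empty vector library. The epoxide hydrolase Ephx1 was at 4.34 and 6.54 FPKM, and the glutathione synthetase gene Gss at 20.2 and 26.5 FPKM. Nfe2l2, the transcription factor that drives many of these genes, was at 99.9 FPKM in the Cacnb4 plasmid library and 76.2 FPKM in the empty vector library. The exporters that act on their products, Abcc1, Abcc3, Abcc4 and Abcc5, had log2 ratios from -0.03 to 0.25.

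Sterol partners had a median log2 ratio of 0.12 over 15 measured genes, with 8 above 0 and 7 below. That median was near 0 with no minimum and -0.06 by the transcript with the highest mean. Nceh1, a cholesteryl ester hydrolase, was at 36.1 FPKM in the Cacnb4 plasmid library and 23.4 FPKM in the empty vector library. The cholesterol acyltransferase Lcat was at 9.04 and 5.82 FPKM, and Lpcat3, a target of the liver X receptors, at 14.6 and 11.2 FPKM. The nuclear receptor partner Rxra was at 20.9 FPKM in the Cacnb4 plasmid library and 26.9 FPKM in the empty vector library. Nr1h2, the liver X receptor beta, was at 24.6 and 22.5 FPKM.

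Peroxisomal partners had a median log2 ratio of -0.02 over 13 measured genes. Catalase, Cat, was at 41.7 FPKM in the Cacnb4 plasmid library and 62.0 FPKM in the empty vector library. Pex19, which brings membrane proteins such as Abcd3 to the peroxisome, was at 89.6 FPKM in the Cacnb4 plasmid library and 70.8 FPKM in the empty vector library. Acsl4 was at 14.6 and 12.6 FPKM, and Ppard at 9.50 and 8.14 FPKM. Translation partners of Abce1 and the F members had a median of -0.01 over 14 measured genes, and their log2 ratios lay between -0.24 and 0.17. Pelo, which recognises stalled ribosomes ahead of Abce1, was at 44.9 FPKM in the Cacnb4 plasmid library and 46.2 FPKM in the empty vector library. In that list Mcts1 was at 9.63 and 11.5 FPKM, Eif3b at 100.2 and 116 FPKM, Gcn1l1 at 25.0 and 22.1 FPKM, and Gspt1 at 90.5 and 102 FPKM.

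**Figure D4:**
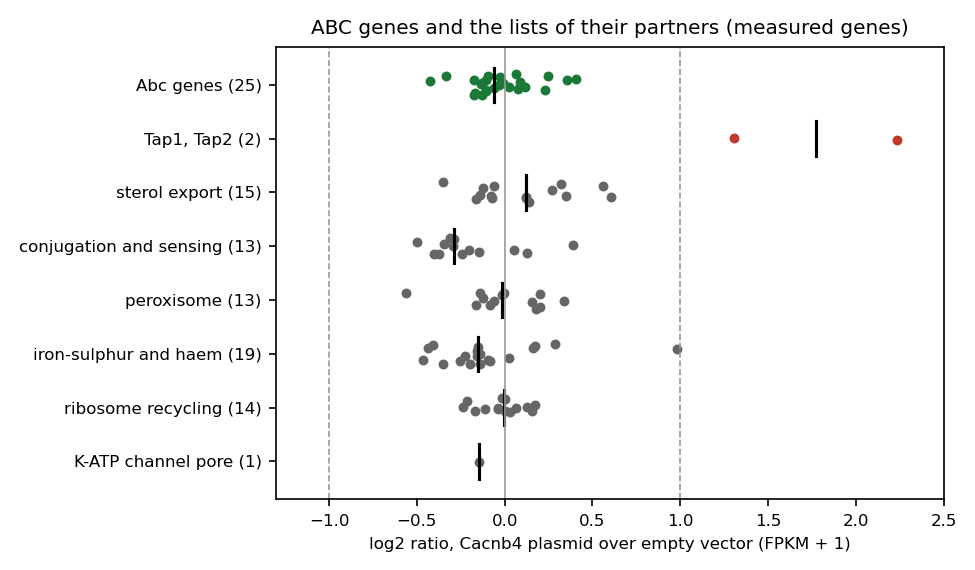
Log2 ratio of FPKM + 1, Cacnb4 plasmid library over empty vector library, for each measured gene of the ABC family and of the lists of its partners, with the number of genes in brackets, a black bar at each median and dashed lines at 2-fold. The points of Tap1 and Tap2 lie past 2-fold, and Slc25a28 at 0.98 is the nearest to it among the others.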

How the data were processed

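RNA-seq values of 2 libraries of H9c2 cells, 1 per group, were used as deposited. Groups were taken from the sample titles. The submitters' processing notes name TopHat 1.4.1 and build rn4. Which program made the transcript values is not stated there, in the labels or in the headers. Per the file headers and the footnote, the deposited read counts followed removal of the 3' adaptor and of reads under 10 bases. The authors' table held 32767 transcripts with a value per library, read as FPKM, and the authors' log2 fold change with its p-value and q-value. The authors marked transcripts with q below 0.05. The deposited pathway table gave a fold enrichment, a p-value, an adjusted p-value and other columns such as the gene count.

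FPKM was summed per symbol, without 13533 unnamed transcripts and 17 named like dates. A gene was measured at 1 FPKM in at least 1 library and counted at 2-fold on the log2(FPKM + 1) scale. The rule was to name every measured member, and from each list the genes at 2-fold and up to 4 with the largest absolute log2 ratio. Kcnj11, Pelo, Nr1h2, Dlk2, Ahr, Arnt, Keap1, Krt8, Krt18, Actc1, Gata4, Tnni3, LOC360231 and the RT1 genes were added after their values were seen. Values of a few named genes were left out and are not reported here. Members and lists were chosen with earlier results of these data known. All 45 symbols matched RefSeq GRCr8, which has 54 such protein-coding symbols, 9 of them not analysed here. Promoters are RefSeq's. The table does not say whether starts count from 0 or 1. No counting interval is given, since FPKM values were not turned back into reads. Other settings tried were pseudocounts of 0.1 and 5 FPKM, no minimum and one of 5 FPKM, only the top transcript of a symbol by mean, rescaling to a median ratio of 1, a 1.5-fold size and adding Tap1, Tap2 and Cftr. Python 3.11.15, numpy 2.4.6, pandas 2.3.3 and matplotlib 3.10.9 were used.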

Additional observations from a re-analysis of the deposited data

How the results depend on the processing

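The count of Abc genes at 2-fold was 0 in each direction under each alternative pseudocount, minimum, transcript choice and rescaling, and also at 1.5-fold, where 4.07% of all measured genes were higher and 2.52% lower. It became 2 higher only by adding Tap1, Tap2 and Cftr. The family's median log2 ratio ranged from -0.09 to -0.03. By the transcript with the highest mean, Abcc10 and Abcc5 changed sign. After rescaling, which raised log2 ratios by at most 0.036 and by less for low genes, Abcc1, Abcc5 and Abcc9 did. The sterol list's median was -0.00018 with no minimum, and by the transcript with the highest mean it was -0.062 with 1 gene, Apoe, lower. In the iron-sulphur and haem list 1 gene, Slc25a28, was counted higher with a pseudocount of 0.1 FPKM and also 1 after rescaling. With no minimum, the potassium channel pores had a median of 0.0056. For Tap1, Tap2 and Cftr the median was 1.87 with a pseudocount of 0.1 FPKM, 1.45 with one of 5 FPKM, where 1 gene, Tap1, was higher, and 1.31 with no minimum. Leaving out microRNA precursors, tried after seeing the data, made 26 of all measured genes lower in place of 103. No paired analysis was possible because each group has 1 library. With 1 library per group and no counts per gene, differences of the size seen among Abc genes cannot be told from the spread between cultures.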
